A study of Rattus norvegicus with 62 samples.

Results

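Long noncoding RNAs that were well expressed in the rat lumbar dorsal root ganglion (DRG) are described here across nerve injury, time and sex. A long noncoding RNA (lncRNA) was counted as a member when the deposited tables annotated its row as lncRNA and its mean over all 62 libraries was at least 10 CPM, the count divided by the library's total in units of 1e+06. 79 of 7888 lncRNA rows, and of 40982 rows in all, met that rule. Members were selected on the mean level alone, so the levels are a description. Just inside the limit were Tincr at 10.3 CPM and LOC102549117 at 10.6 CPM, and just outside it were LOC102547266 at 9.97 CPM and LOC108349628 at 9.91 CPM.

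The study took the fourth lumbar DRG of rats after chronic constriction injury (CCI), in which loose ligatures around the sciatic nerve produce a neuropathy, and sequenced RNA from the injured side (ipsilateral, IL) and the other side (contralateral, CL). The IL and CL groups held 6 libraries each from males at 24 h, 7 each from males at 1 week, 5 each from males at 5 weeks, 7 each from females at 1 week and 6 each from females at 5 weeks. All animals had CCI, so CL ganglia came from injured rats, and no uninjured animals were analysed here. Strain and age are not given in the sources used here. A ganglion is bulk tissue, in which fewer cells of a type and less RNA per cell cannot be told apart.

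LncRNAs are transcripts without a recognised protein product. Some stay in the nucleus and act on chromatin or splicing, some bind microRNAs, and others are mainly the precursors of small RNAs that lie in their introns or exons. Many start at the promoter of a protein-coding gene, running away from it (divergent), or overlap such a gene on the other strand (antisense). In sensory neurons, nerve injury is known to switch on a regeneration programme led by transcription factors such as Jun.

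The tables list Meg3 as RGD1566401 and Xist as LOC100911498, matched here by gene ID. The members were spread over 19 chromosomes, with 6 on the X and 1 on an unplaced scaffold. Their combined exon length ran between 154 and 85575 bases with a median of 4251. The label was checked against the RefSeq gene table: of 65 members found there, 58 were listed as lncRNA, 5 as protein coding (among them Atp5mpl, Ndufb1 and Tmem80), 1 as a pseudogene and 1 as a transcribed pseudogene, and 14 had no entry. Genes of miRNAs, snoRNAs and other small or structural RNAs were left aside in counting overlaps. By that count 49 members had no overlap with any other annotated gene. The other 30 did, and how the counting used strand is not given in the sources used here, so reads of overlapping genes cannot be told apart in them.

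Per kilobase of exon, Meg3, an imprinted RNA expressed from the maternal allele, led with 230.1 CPM per kb. Bc1, a short RNA polymerase III transcript of rodent neurons, followed with 183 CPM per kb, and Miat, a nuclear RNA of neurons, had 70.5 CPM per kb. Gas5, the host of box C/D small nucleolar RNAs, had 48.4 CPM per kb and Oip5-as1, whose mammalian relatives bind miR-7, had 38.8 CPM per kb. Without correction for length, Miat was highest at 597 CPM, ahead of Meg3 at 435 CPM, Oip5-as1 at 299 CPM, Xist at 185 CPM and LOC102555254 at 106 CPM.

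In the tables' annotation, 11 members contained 35 miRNA genes on their own strand, and 34 of these genes had mature sequences in RefSeq (build GRCr8). These groupings were made after the data were seen. The libraries were made from polyadenylated RNA and mature miRNAs were not measured, so the values below are those of the long transcripts. The mature sequences of hosts described below are shown 5′ to 3′, with the seed (bases 2 to 8) in capitals.
miR-22-3p (LOC120095139): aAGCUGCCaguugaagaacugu
miR-29a-3p (LOC120102485): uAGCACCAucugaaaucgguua
miR-29b-3p (LOC120102485): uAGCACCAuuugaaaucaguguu
miR-34a-5p (LOC103692514): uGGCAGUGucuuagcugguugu
miR-1b (LOC108350538): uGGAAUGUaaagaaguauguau
miR-770-5p (Meg3): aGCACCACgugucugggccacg
miR-675-3p (H19): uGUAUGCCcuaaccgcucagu
miR-100-5p (Lnc215): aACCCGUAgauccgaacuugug
let-7a-5p (Lnc215): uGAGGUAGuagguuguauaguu
miR-376c-5p (LOC102555254): gUGGAUAUuccuucuauguuu
miR-376b-5p (LOC102555254): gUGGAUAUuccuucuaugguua
miR-379-5p (LOC102555254): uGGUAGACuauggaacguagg
miR-29a-3p and miR-29b-3p, both inside LOC120102485, had the same seed, as had miR-376c-5p and miR-376b-5p inside LOC102555254. Only 1 further seed was shared among the 61 mature sequences, by miR-370-5p and miR-1193-3p, also inside LOC102555254.

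RefSeq held promoter windows, reaching 250 bases before the start and 50 bases after it, for 53 members, several of which had more than 1 window. The AP-1 motif TGANTCA and the cyclic AMP response motif TGACGTCA were searched on both strands, on which each reads the same, and they cannot overlap each other. TGANTCA was found for 4 of 53 members, 7.55%, against 8.04% of 27457 genes with a window. TGACGTCA was found for 2 of 53 members, 3.77%, against 2.00% of those genes. The windows below are those with a motif among members described here, with the motif in capitals, together with the first of 2 windows of LOC100911221, which runs away from Jun; neither window holds a motif.
Meg3 (GRCr8, chr6:134273806-134274105, plus strand): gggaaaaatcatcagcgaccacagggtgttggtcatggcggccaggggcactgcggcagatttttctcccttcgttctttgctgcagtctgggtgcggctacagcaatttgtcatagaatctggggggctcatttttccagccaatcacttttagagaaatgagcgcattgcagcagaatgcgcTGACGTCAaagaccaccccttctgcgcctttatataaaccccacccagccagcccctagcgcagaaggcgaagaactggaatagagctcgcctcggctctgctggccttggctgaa
Gas5 (GRCr8, chr13:75836713-75837012, plus strand): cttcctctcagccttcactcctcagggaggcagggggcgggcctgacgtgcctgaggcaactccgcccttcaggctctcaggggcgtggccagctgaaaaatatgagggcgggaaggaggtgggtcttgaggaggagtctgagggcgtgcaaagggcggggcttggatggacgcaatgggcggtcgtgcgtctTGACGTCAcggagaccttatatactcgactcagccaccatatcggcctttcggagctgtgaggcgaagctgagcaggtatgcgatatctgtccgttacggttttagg
LOC102555254 (GRCr8, chr6:134349369-134349668, plus strand): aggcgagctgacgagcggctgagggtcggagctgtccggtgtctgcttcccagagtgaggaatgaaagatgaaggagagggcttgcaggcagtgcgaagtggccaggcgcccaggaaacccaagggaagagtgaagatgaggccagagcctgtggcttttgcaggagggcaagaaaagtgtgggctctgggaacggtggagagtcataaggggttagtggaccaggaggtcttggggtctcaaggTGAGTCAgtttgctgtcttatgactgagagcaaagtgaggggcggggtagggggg
LOC100911221 (GRCr8, chr5:115013005-115013304, plus strand): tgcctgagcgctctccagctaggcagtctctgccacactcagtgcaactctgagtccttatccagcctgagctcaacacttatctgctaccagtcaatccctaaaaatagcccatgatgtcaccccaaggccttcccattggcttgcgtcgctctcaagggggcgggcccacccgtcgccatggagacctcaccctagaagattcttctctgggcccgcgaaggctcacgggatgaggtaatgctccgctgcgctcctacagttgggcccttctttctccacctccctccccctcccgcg
The TGACGTCA of Meg3 began at position -66 from the start, that of Gas5 at -57, and the TGANTCA of LOC102555254 at -5. None of the 5 windowed members that were higher on the IL side at every time from 1 week in both sexes held TGANTCA or TGACGTCA. Nor did any of the 10 windowed members that were lower there. These sets are too small to be compared with the share of all genes. Gas5 and Meg3 are described below.

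The libraries held between 16933304 and 33495720 counts. Males at 1 and 5 weeks were in 1 table, and females and males at 24 h in another, so levels between the tables are not comparable beyond their separate scaling. Ribosomal RNA took 0.692% to 1.42% of counts in IL against 1.69% to 2.76% in CL libraries of females at 1 week, with no overlap, and the sides overlapped in the other 4 arms. All 10 sensory neuron markers were above 0 in every library, and their sum was 15007 to 18855 CPM in IL and 15508 to 18936 CPM in CL libraries. All 7 markers of myelinating Schwann cells had lower means in IL than in CL in all 5 arms, and their sum was 7554 to 31655 CPM in IL and 9661 to 33750 CPM in CL libraries. All 8 macrophage markers had higher means in IL at 1 week in both sexes and at 5 weeks in females, with sums of 101 to 207 CPM in IL and 47.9 to 64.6 CPM in CL libraries of females at 1 week. The part of these cell types and of ribosomal RNA in the differences below was not tested. Some values are given also with the ribosomal RNA share as a covariate. In females at 1 week that share and side cannot be told apart, so the covariate does not separate them there.

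Of the 79 members, 64 differed between the sides in at least 1 arm. The share of all genes that did so was not counted. A gene was called when its adjusted p was under 0.05 (edgeR quasi-likelihood test, Benjamini-Hochberg over all genes tested). In males at 24 h, 14 of 79 members were called, 10 higher and 4 lower in IL, 17.7% against 14.1% of all genes tested (8.23% higher and 5.9% lower). In males at 1 week, 39 of 78 were called, 12 higher and 27 lower in IL, which is 50% of members against 47% of all genes (23.6% higher and 23.4% lower). In males at 5 weeks, 29 of 78 were called, 12 higher and 17 lower in IL, 37.2% against 34.7% (16% higher and 18.7% lower). Members were chosen for their level, and of protein-coding genes at 10 CPM or more 18% were called in males at 24 h, 56.3% at 1 week and 45.4% at 5 weeks. With the replicate number as a block, 21 members were called at 24 h, 48 at 1 week and 36 at 5 weeks in males, and 50 and 54 at 1 and 5 weeks in females. The share of all genes called with the block was not counted.

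In females, more of the called members were higher than lower in IL at 1 week, and more were lower at 5 weeks. At 1 week 44 of 79 members were called, 27 higher and 17 lower in IL, 55.7% against 45.7% of all genes. At 5 weeks 48 of 79 were called, 13 higher and 35 lower in IL, 60.8% against 42% of all genes. Members higher in IL made up 34.2% at 1 week and 16.5% at 5 weeks, against 23.9% and 22.9% of all genes. Members lower in IL made up 21.5% and 44.3% of members, against 21.8% and 19.1% of all genes. With the ribosomal RNA share as a covariate, the count at 1 week in females was 27, 15 higher and 12 lower, and that at 5 weeks was again 48. The share of all genes called with the covariate was not counted. At 1 week the ribosomal RNA share and side cannot be told apart. Of protein-coding genes at 10 CPM or more, 55.4% were called at 1 week (26.6% higher and 28.8% lower) and 51.6% at 5 weeks (26.9% higher and 24.7% lower).

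**Figure D1:**
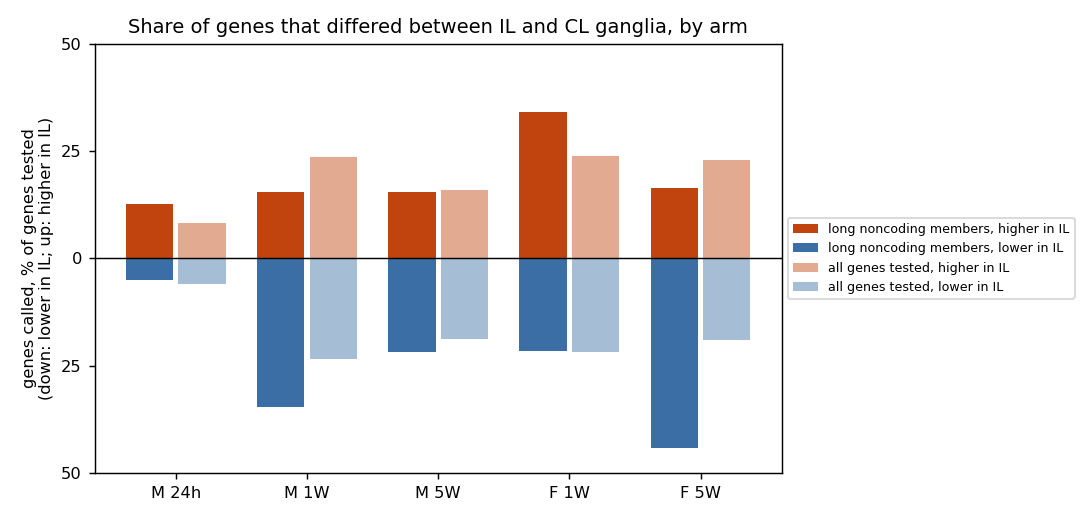
The y axis gives the percentage of tested genes called higher (up) or lower (down) in IL than in CL ganglia, for the long noncoding members (full colour) and all genes tested (pale), in each arm on the x axis. In females the members' bar points mainly up at 1 week, with 34.2% higher, and mainly down at 5 weeks, with 44.3% lower.

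The median log2 fold change of the members, IL over CL, was 0.01 in males at 24 h, -0.09 at 1 week and -0.01 at 5 weeks, and 0.07 in females at 1 week and -0.13 at 5 weeks. The medians of all genes tested were -0.01, 0.01, -0.00, 0.01 and 0.01 in the same order. 15 members were called in no arm, among them Bc1, Tmem80 and Ndufb1. 10 were called in both directions in different arms. The share of all genes was not counted for either pattern. The mean level that chose the members can itself follow a side: 4 members reached 10 CPM only through IL libraries and 3 only through CL libraries, and 6 of these 7 are among the 14 called in males at 24 h. Among the 72 members at 10 CPM or more on both sides, 8 were called in males at 24 h (11.1%, against 14.1% of all genes), 33 at 1 week (46.5%) and 23 at 5 weeks (32.4%), and 37 in females at 1 week (51.4%) and 41 at 5 weeks (56.9%).

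**Figure D2:**
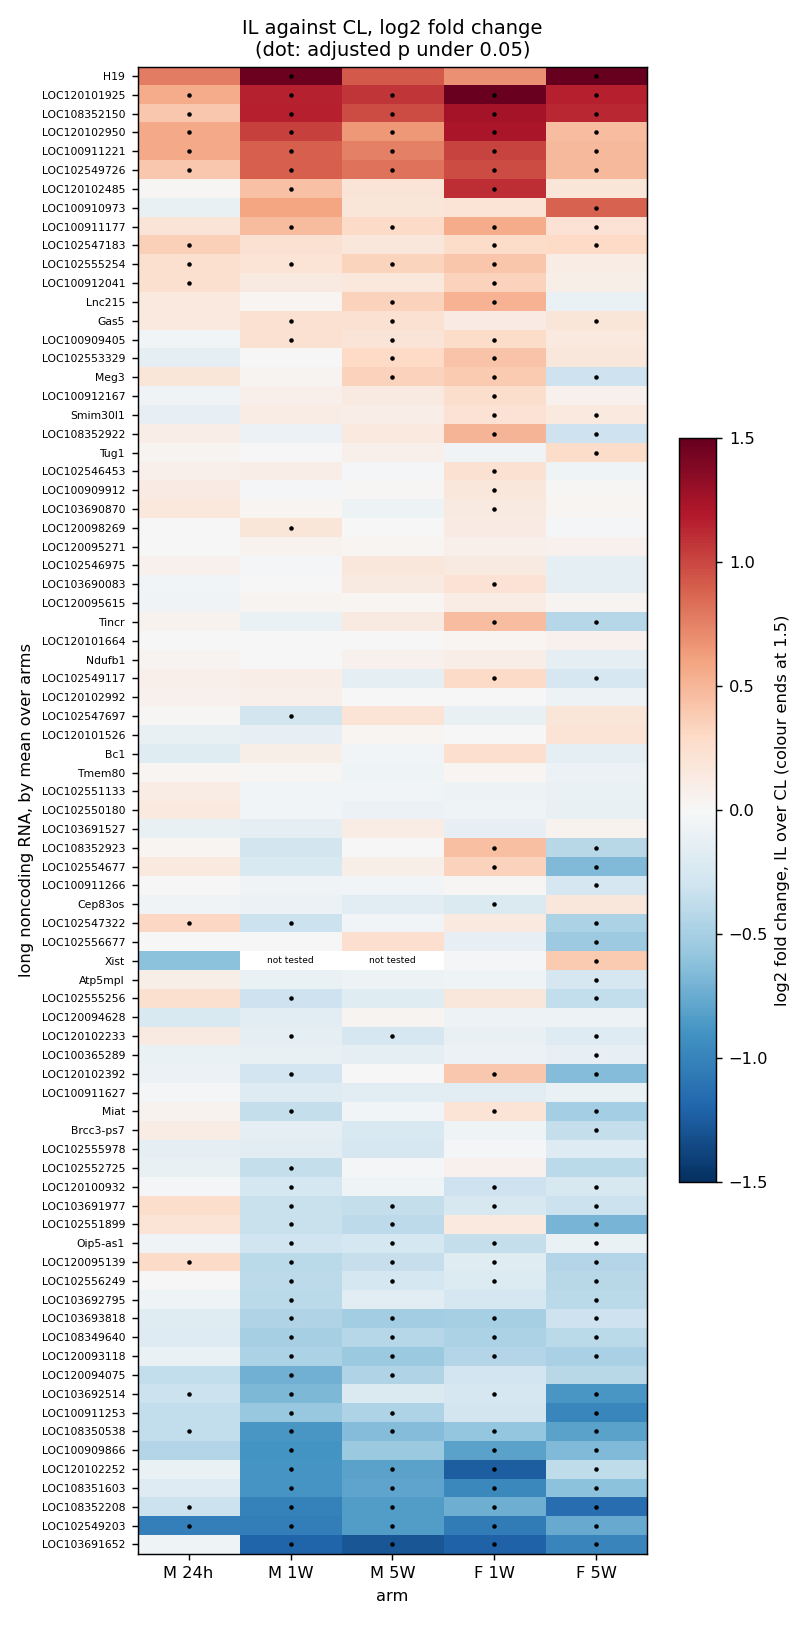
Each row is 1 of the 79 members, ordered by the mean over arms, each column an arm, and the colour is the log2 fold change of IL over CL on a scale that ends at 1.5 in each direction. Dots mark adjusted p under 0.05, and the 5 rows with a dot and red in all columns are LOC120101925, LOC108352150, LOC120102950, LOC100911221 and LOC102549726.

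5 members rose in IL ganglia in all 5 arms, a count for which the share of all genes was not computed. The one with the highest mean CPM, not corrected for length, LOC100911221 (chr5:109897523-109949196, plus strand, build mRatBN7.2), starts 255 bases from Jun and runs away from it. At 24 h in males it had 24.0, 31.6 and 32.97 CPM in IL libraries (lowest, median and highest), against 17.5, 20.6 and 23.9 CPM in CL libraries. In males at 1 week it had 29.6, 40.3 and 47.1 CPM in IL, against 19.3, 21.7 and 24.0 CPM in CL. All IL libraries were above all CL libraries in both comparisons. In males at 5 weeks the 5 IL libraries had 26.2, 32.4, 34.3, 37.1 and 44.4 CPM, against 19.2, 20.2, 20.3, 21.3 and 22.3 CPM in CL. In females at 1 week it had 36.1, 39.8 and 46.5 CPM in IL, against 17.1, 20.1 and 23.6 CPM in CL, and at 5 weeks 30.8, 36.002 and 43.5 CPM in IL, against 22.4, 26.3 and 29.0 CPM in CL. In these arms, too, there was no overlap.

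In males LOC100911221 rose by 0.56 on the log2 scale after 24 h (SE 0.09, adjusted p = 3.12e-05), by 0.90 after 1 week (SE 0.09, adjusted p = 3.23e-08) and by 0.76 after 5 weeks (SE 0.11, adjusted p = 1.18e-05). The female rise was 1.02 after 1 week (SE 0.09, adjusted p = 2.67e-12) and 0.48 after 5 weeks (SE 0.09, adjusted p = 6.64e-05). Jun itself, a subunit of the AP-1 transcription factor, rose in all 5 arms, with log2 fold changes of 1.42, 1.67 and 1.66 in males in the order of time and 1.88 and 1.65 in females. The IL level of LOC100911221 stayed above that of CL in each of the 31 IL and CL pairs with the same replicate number. The female difference was smaller at 5 weeks than at 1 week by 0.54 (SE 0.13, adjusted p = 0.00302), and its CL level was higher at 5 weeks than at 1 week by 0.39 (SE 0.09, adjusted p = 0.00389).

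3 of the other risers overlap a protein-coding gene on the opposite strand, and all 3 averaged under 10 CPM in CL libraries, so that they entered the set through their IL level and had to differ. LOC108352150 (chr10:92718832-92732169) overlaps Cacng4, which encodes an auxiliary subunit of AMPA receptors. In females at 1 week it had 20.6, 22.8 and 29.7 CPM in IL (lowest, median, highest), against 9.48, 10.3 and 11.4 CPM in CL. In males at 5 weeks the IL libraries had 15.6, 21.2, 21.3, 21.6 and 22.7 CPM, against 9.56, 9.62, 9.87, 10.9 and 12.01 CPM in CL. The sides overlapped at 24 h, with 9.06 to 14.0 CPM in IL and 8.47 to 10.5 CPM in CL, and not later. In males the log2 fold change was 0.40 after 24 h, 1.17 after 1 week and 0.98 after 5 weeks, with SEs of 0.11, 0.08 and 0.10. In females it was 1.25 and then 1.13, with SEs of 0.10 and 0.11.

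LOC120101925 (chr3:151286340-151298063) lies across from Ptprt, a receptor-type tyrosine phosphatase gene. It had 16.3, 19.5 and 23.5 CPM in IL libraries of females at 1 week, against 6.19, 6.64 and 9.37 CPM in CL. In males at 5 weeks it had 16.4, 17.3, 17.7, 19.01 and 20.002 CPM in IL, against 7.73, 8.03, 8.09, 9.01 and 10.1 CPM in CL. Its log2 fold change was 0.55 (SE 0.15) in males at 24 h, where the sides overlapped, and between 1.08 (SE 0.13) and 1.48 (SE 0.13) in the later arms, where they did not. LOC120102950 (chr5:124196081-124203291), across from Ttc39a, differed most in females at 1 week, with 16.7, 22.0 and 25.3 CPM in IL against 7.50, 8.85 and 10.6 CPM in CL, a log2 fold change of 1.23 (SE 0.10).

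LOC102549726 (chr20:3876563-3879281), a short transcript with 2 small nucleolar RNA (snoRNA) genes inside it, was above 10 CPM on both sides and overlapped no protein-coding gene. Per kb of exon it was the highest of the 5 risers, at 31.8 CPM per kb against 1.17 for LOC100911221. It had 30.5, 36.8 and 45.5 CPM in IL libraries of females at 1 week, against 16.0, 18.1 and 21.8 CPM in CL, a log2 fold change of 0.98 (SE 0.11, adjusted p = 8.57e-10). In males at 1 week it had 28.2, 30.1 and 38.3 CPM in IL, against 15.2, 16.4 and 19.2 CPM in CL, a log2 fold change of 0.89 (SE 0.09, adjusted p = 2.19e-08). The sides did not overlap in these 2 arms or in males at 5 weeks, and they overlapped in males at 24 h and females at 5 weeks.

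3 members fell in all 5 arms, and 13 fell in all 4 arms at 1 and 5 weeks. Of these, 2 and 3 passed the rule only through their CL level, and their differences are given as a description. LOC120093118, among the 13, is protein coding in RefSeq and overlaps Rbms3 on the same strand, so its reads may be those of a coding gene. How many of all genes fell in as many arms was not counted, so the counts of members are descriptions too. LOC102549203 (chr8:75584843-75590148), with no protein-coding gene within 5 kb, was low on the IL side from the first day. After 24 h males had 4.69, 6.63 and 9.24 CPM in IL, against 10.3, 13.4 and 18.8 CPM in CL. In females at 1 week it had 5.16, 6.88 and 10.2 CPM in IL, against 11.5, 14.5 and 18.7 CPM in CL, and in males at 5 weeks 5.31, 6.75, 7.70, 7.97 and 9.48 CPM in IL, against 10.01, 11.3, 14.5, 15.3 and 15.5 CPM in CL. All IL libraries were below all CL libraries in each of the 5 arms. In males the log2 fold change was -1.03 after 24 h (SE 0.16), -1.03 after 1 week (SE 0.15) and -0.84 after 5 weeks (SE 0.18). In females it was -1.05 after 1 week (SE 0.14) and -0.76 after 5 weeks (SE 0.15). It averaged under 10 CPM in IL libraries, as did LOC103691652 and LOC108350538, so that these 3 had to differ.

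LOC103691652 (chr2:189049024-189065436) was lower in IL from 1 week on in both sexes. At 24 h in males it had 14.2, 16.2 and 20.6 CPM in IL, against 15.3, 17.2 and 21.0 CPM in CL, and was not called (log2 fold change -0.07, SE 0.15, adjusted p = 0.827). At 1 week in males it had 4.47, 8.51 and 10.6 CPM in IL, against 15.2, 18.96 and 21.9 CPM in CL, with no overlap. The log2 fold change was then -1.20 (SE 0.14), and the step between 24 h and 1 week was -1.13 (SE 0.21). Later in males it was -1.28 (SE 0.18), and in females -1.21 (SE 0.15) after 1 week and -0.99 (SE 0.16) after 5 weeks.

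LOC108352208 (chr10:66940462-66956291) lies across from Asic2, a gene of the acid-sensing ion channels, and was above 10 CPM on both sides. In females at 5 weeks it had 10.1, 12.1 and 13.5 CPM in IL, against 21.1, 26.0 and 33.5 CPM in CL, a log2 fold change of -1.14 (SE 0.11, adjusted p = 3.05e-10). In males at 5 weeks it had 9.99, 11.02, 11.7, 13.6 and 15.4 CPM in IL, against 16.9, 20.6, 23.0, 24.1 and 25.7 CPM in CL. No overlap between the sides was seen in the 4 arms at 1 and 5 weeks. Its fall at 24 h, -0.32 (SE 0.11, adjusted p = 0.043), lost its call without CL replicate 1, 2, 4, 5 or 6 or IL replicate 3, 4 or 6, with adjusted p up to 0.127.

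**Figure D3:**
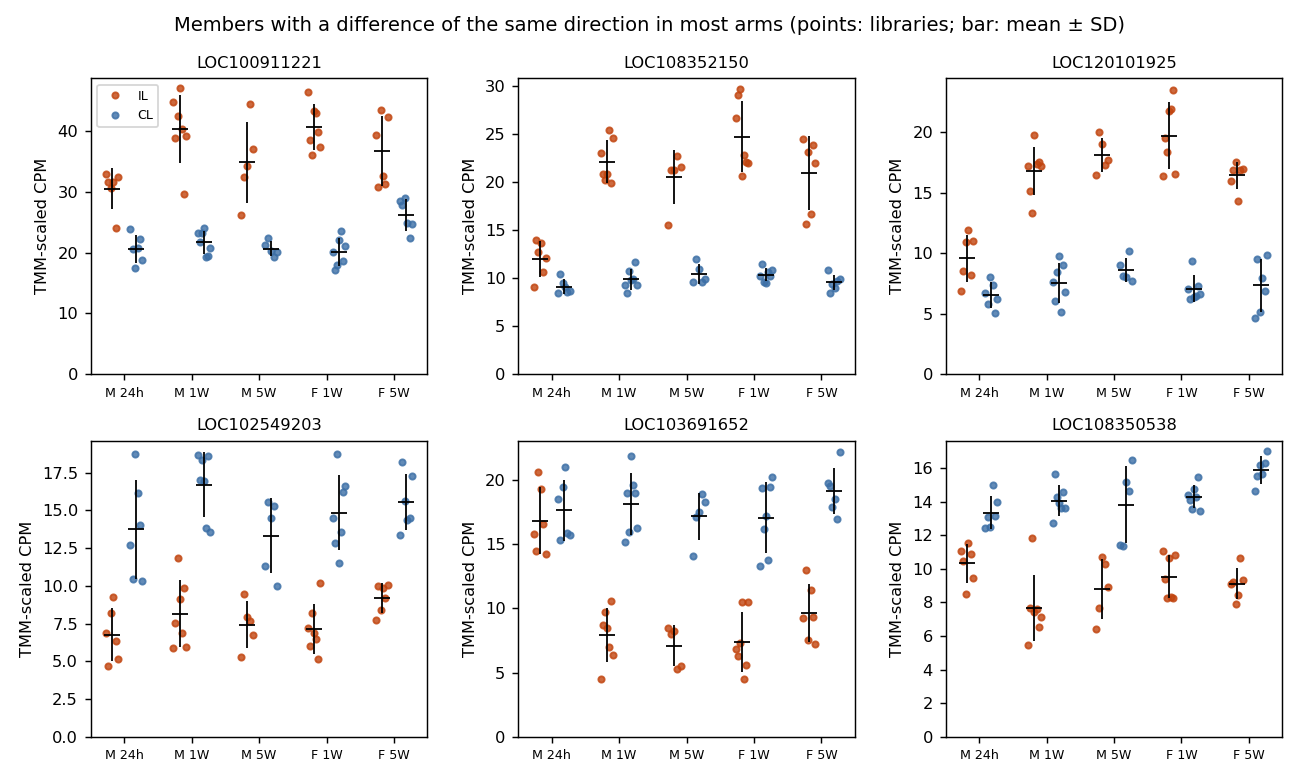
Points are libraries, bars the mean ± SD, and the y axis is the CPM after TMM scaling within a table, for IL (orange, left) and CL (blue, right) in each arm. LOC100911221, LOC108352150 and LOC120101925 are higher in IL and LOC102549203, LOC103691652 and LOC108350538 lower, and LOC103691652 is the only one of the 6 that was not called at 24 h.

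The neighbours did not all move with the lncRNA. 49 members had a protein-coding gene that overlapped or lay within 5 kb, and 45 or 46 of these pairs were tested in each arm. At 24 h both genes were called in 2 pairs, both in the same direction. In males at 1 week both were called in 11 pairs, 8 in the same and 3 in opposite directions, and at 5 weeks in 14 pairs, 9 in the same and 5 in opposite directions. In females both were called in 14 pairs at 1 week, 10 in the same and 4 in opposite directions, and in 14 pairs at 5 weeks, 11 in the same and 3 in opposite directions. Over the pairs, Pearson's r between the log2 fold changes was 0.61, 0.45, 0.46, 0.46 and 0.52, and Spearman's rho was 0.44, 0.31, 0.31, 0.35 and 0.44, in the order of males at 24 h, 1 week and 5 weeks and females at 1 and 5 weeks. These are descriptions, since the genes of a pair come from the same libraries and may share reads. Among the members of these pairs, LOC108352150, LOC120101925 and LOC120102950 entered the set through their IL level. LOC103691652, also in these pairs, entered through its CL level. These members had to differ, which also enters the counts and correlations. The like counts for neighbouring genes outside the set were not made.

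Jun and Ptprt are the 2 neighbours far to the right in the plot of neighbours. Ptprt rose with its antisense member, by 1.41 (SE 0.16) in males at 1 week and 1.61 (SE 0.17) in females at 1 week. Cacng4 was not called in any arm, with log2 fold changes of -0.08 to 0.14, while LOC108352150 rose across from it. Ttc39a fell in males at 5 weeks by 0.47 (SE 0.15, adjusted p = 0.0176) and in females at 1 week by 0.40 (SE 0.09, adjusted p = 0.000357), while LOC120102950 rose. Copg2, a coatomer subunit gene, fell in males and females at 1 and 5 weeks, by 0.13 to 0.20, and LOC120102252 across from it fell by 0.38 to 1.23. That of females at 5 weeks was the least certain (SE 0.15, adjusted p = 0.043).

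**Figure D4:**
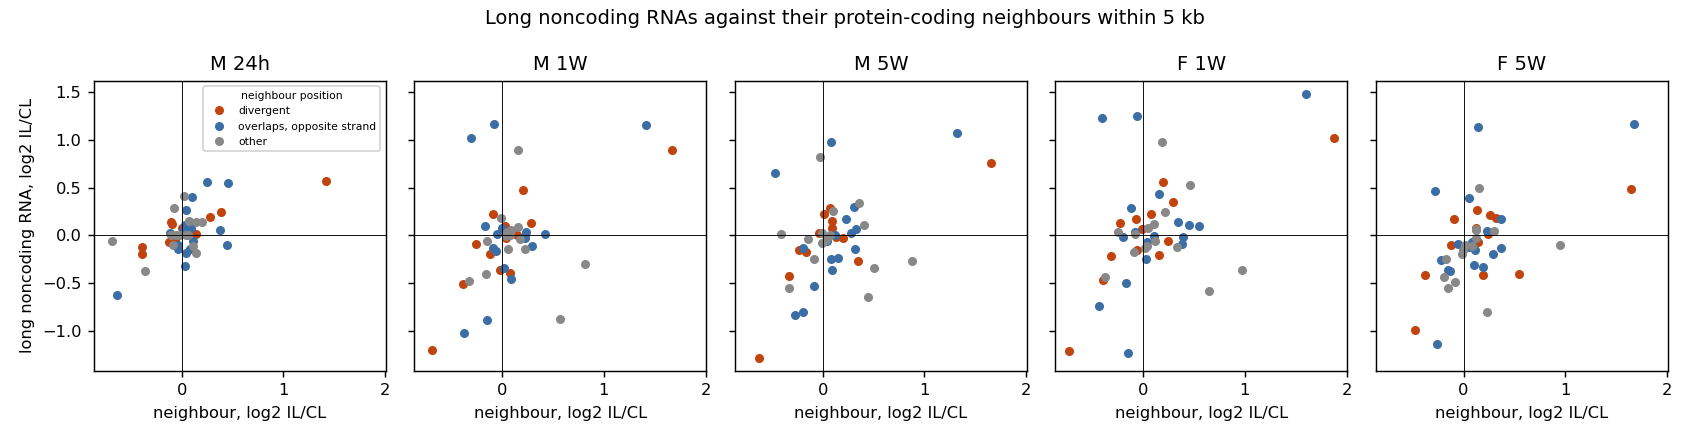
Each point is a long noncoding member and its protein-coding neighbour within 5 kb in 1 arm, with the neighbour's log2 fold change of IL over CL on the x axis and the member's on the y axis, coloured by position. Jun and Ptprt, at neighbour values of 1.88 and 1.61 in females at 1 week, stand to the right of the rest, and the points above 1 at neighbour values of -0.06 and -0.40 in that arm are LOC108352150 and LOC120102950.

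Among the lncRNAs of known function, those of neurons and of the nucleus did not share a direction. Of the 4 members on the list of neural lncRNAs (Miat, Meg3, Oip5-as1 and Bc1), Oip5-as1 fell at 1 and 5 weeks in both sexes, Miat and Meg3 changed direction between arms, and Bc1 was not called in any arm. Oip5-as1 (chr3:106578309-106591845) had 232, 254 and 266 CPM in IL libraries of males at 1 week, against 292, 316 and 326 CPM in CL, and the 5 IL libraries at 5 weeks had 219, 230.4, 235, 238 and 244 CPM, against 258, 272, 276, 297 and 300.0 CPM in CL. In females at 1 week it had 259.6, 281 and 286 CPM in IL, against 333, 347 and 383 CPM in CL. IL and CL did not overlap in these 3 arms. The log2 fold changes were -0.30 (SE 0.04, adjusted p = 5.58e-07), -0.27 (SE 0.05, 5.51e-05) and -0.36 (SE 0.04, 3.89e-10). In females at 5 weeks the value was -0.10 (SE 0.04, adjusted p = 0.0488), and the call was lost without CL replicate 1, 2, 3, 4 or 6 or IL replicate 1, 4, 5 or 6, with adjusted p up to 0.118.

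Bc1 varied widely within groups. At 24 h males had 11.7, 32.7 and 59.4 CPM in IL, against 34.7, 37.7 and 41.3 CPM in CL, and the largest log2 fold change of the 5 arms in size was 0.25 (SE 0.24, adjusted p = 0.418) in females at 1 week. All its groups overlapped.

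Miat (chr12:44414620-44429852), the most abundant member before length is taken into account, fell in males at 1 week and did not at 5 weeks. It had 409, 434 and 527 CPM in IL at 1 week, against 506, 556 and 682 CPM in CL, a log2 fold change of -0.36 (SE 0.07, adjusted p = 0.000135), and was lower in IL in 7 of 7 pairs. At 5 weeks the males had 468, 505, 517, 541 and 549.9 CPM in IL, against 463, 477, 558, 575 and 588 CPM in CL. Those groups overlapped, with a log2 fold change of -0.04 (SE 0.08, adjusted p = 0.731).

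In females Miat moved the other way round. At 1 week it had 674, 694 and 771 CPM in IL, against 531, 591 and 765 CPM in CL, with a log2 fold change of 0.21 (SE 0.07, adjusted p = 0.0141). Adjusting for the share of ribosomal RNA, it was -0.04 (adjusted p = 0.868). At 5 weeks it had 498, 561 and 650.0 CPM in IL, against 743, 798 and 877 CPM in CL, without overlap, and a log2 fold change of -0.51 (SE 0.08, adjusted p = 1.23e-06).

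Meg3 (chr6:128491808-128524010) followed a like course in females. At 1 week it had 512, 533 and 573 CPM in IL, against 367, 394 and 477 CPM in CL, and at 5 weeks 371, 444 and 497 CPM in IL, against 519.7, 537 and 625.2 CPM in CL. The sides did not overlap at either time, with log2 fold changes of 0.39 (SE 0.07, adjusted p = 1.2e-05) and -0.31 (SE 0.07, adjusted p = 0.000928). Adjusting for the share of ribosomal RNA, the 1 week value was 0.19 (adjusted p = 0.3) and the 5 week value -0.32 (adjusted p = 0.000463). In males Meg3 rose at 5 weeks, with 401, 449, 454, 477 and 486 CPM in IL, against 295, 324, 372, 399 and 402 CPM in CL (log2 fold change 0.34, SE 0.08, adjusted p = 0.00154). The lowest IL library was just below the highest CL library. At 24 h it was 0.18 (SE 0.07, adjusted p = 0.102), and 0.18 (adjusted p = 0.00211) with the replicate as a block. It was also called without CL replicate 4 or IL replicate 1 (0.23 in each case).

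Xist, the RNA that coats the inactive X chromosome, was near 0 in males, with no male library above 0.605 CPM. In females at 1 week it had 399.9, 444 and 480.2 CPM in IL, against 426, 451 and 475 CPM in CL, which overlapped (log2 fold change -0.02, SE 0.06, adjusted p = 0.806). At 5 weeks it had 454, 507 and 518 CPM in IL, against 350.3, 376 and 410.3 CPM in CL, without overlap, a log2 fold change of 0.39 (SE 0.07, adjusted p = 9.24e-06). Miat and Xist were the members on the list of nuclear and X-inactivation lncRNAs. Of the 9 symbols on it 4 matched a row. Malat1, Neat1, Tsix, Kcnq1ot1 and Firre matched none, so their levels are not known here. On the lists of neural, imprinted and stress and growth lncRNAs, 6 of 18, 2 of 11 and 6 of 17 symbols matched.

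Of the 3 members on the list of stress and growth lncRNAs (Gas5, Meg3 and Tug1), Gas5 rose in males at 1 and 5 weeks. It had 19.1, 21.7 and 24.9 CPM in IL at 1 week, against 16.9, 18.2 and 20.6 CPM in CL, and 19.97, 21.5, 21.8, 22.0 and 23.4 CPM in IL at 5 weeks, against 16.5, 18.6, 18.8, 19.5 and 19.7 CPM in CL. The sides overlapped at 1 week and not at 5 weeks, with log2 fold changes of 0.23 (SE 0.06, adjusted p = 0.00158) and 0.22 (SE 0.07, adjusted p = 0.0111). In females at 5 weeks it was 0.18 (SE 0.07, adjusted p = 0.0418), a call that was lost without CL replicate 2, 4 or 5 or IL replicate 1, 3 or 5, with adjusted p up to 0.236, reached without IL replicate 1, where the value was 0.10. Tug1 rose in females at 5 weeks, with 44.2, 47.4 and 49.7 CPM in IL, against 36.7, 39.4 and 42.3 CPM in CL (log2 fold change 0.27, SE 0.05, adjusted p = 5.69e-05). It was not called in the other 4 arms, whose log2 fold changes lay between -0.06 and 0.07.

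H19, an imprinted RNA of fetal growth that contains Mir675, was on the list of imprinted lncRNAs with Meg3. It rose in males at 1 week, with 25.6, 37.1 and 77.5 CPM in IL, against 6.95, 12.3 and 27.4 CPM in CL (log2 fold change 1.47, SE 0.28, adjusted p = 0.000207). In females at 5 weeks it had 5.15, 13.1 and 17.8 CPM in IL, against 3.07, 3.51 and 5.81 CPM in CL (log2 fold change 1.67, SE 0.38, adjusted p = 0.000576). In CL libraries of females H19 was lower at 5 weeks than at 1 week by 1.81 on the log2 scale (SE 0.37, adjusted p = 0.00102). Against CL libraries of the other week, the female values were 2.49 at 1 week and -0.14 at 5 weeks (adjusted p = 8.72e-07 and 0.786). The groups overlapped in all 5 arms, and H19 was higher in IL in 30 of 31 pairs. With the replicate as a block it was called also in males at 5 weeks (0.91, adjusted p = 0.000635) and females at 1 week (0.76, adjusted p = 0.0385). The same 2 values were 0.93 (adjusted p = 0.0627) and 0.68 (adjusted p = 0.0679) without the block. They passed the threshold also without IL replicate 3 of the males at 5 weeks (1.11) and without CL replicate 2 of the females at 1 week (0.87). The difference in males at 24 h, 0.76 (SE 0.33, adjusted p = 0.125), did so without CL replicate 5 (1.07). All 5 fibroblast markers had higher means in IL in males at 1 week and females at 5 weeks, with sums of 3902 to 5529 CPM in IL and 2513 to 4073 CPM in CL libraries of males at 1 week, and 1603 to 2493 CPM in IL and 918 to 1773 CPM in CL libraries of females at 5 weeks. In males at 24 h and females at 1 week all 5 had lower means in IL, and in males at 5 weeks 3 had higher and 2 lower means. Their part in the result was not tested.

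Members that contain miRNA genes moved in several directions. Of the 11, 2 were higher and 2 lower in IL in males at 24 h, 3 and 3 at 1 week, and 3 and 2 at 5 weeks. In females 7 were higher and 3 lower at 1 week, and 1 was higher and 6 were lower at 5 weeks. Of all genes, 8.23% were higher and 5.9% lower in males at 24 h, 23.6% and 23.4% at 1 week and 16% and 18.7% at 5 weeks, and in females 23.9% and 21.8% at 1 week and 22.9% and 19.1% at 5 weeks. Their median log2 fold changes were 0.15, 0.03 and 0.09 in males in the order of time, and 0.39 and -0.31 in females at 1 and 5 weeks.

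LOC120095139 (chr10:60304838-60309723), which contains Mir22 and Mir6326, changed direction with time. Males at 24 h had 76.5, 83.9 and 89.8 CPM in IL, against 65.6, 68.5 and 74.6 CPM in CL, and at 1 week 36.1, 45.8 and 52.6 CPM in IL, against 55.1, 61.6 and 64.9 CPM in CL. The IL libraries were thus all above the CL libraries at 24 h and all below them at 1 week. The log2 fold changes were 0.28 (SE 0.05, adjusted p = 0.000175) and -0.41 (SE 0.07, adjusted p = 1.63e-05), and the difference between the 2 times was -0.69 (SE 0.09, adjusted p = 1.95e-08). It was also called as lower in the other 3 arms, at -0.35 (SE 0.08) in males after 5 weeks and, in females, -0.18 (SE 0.05) after 1 week and -0.44 (SE 0.05) after 5 weeks.

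LOC120102485 (chr4:59647493-59762806), which contains Mir29a and Mir29b1, rose most in females at 1 week. It had 33.3, 42.7 and 46.0 CPM in IL, against 16.6, 19.7 and 21.4 CPM in CL, without overlap, a log2 fold change of 1.11 (SE 0.07, adjusted p = 9.29e-16). Adjusting for the share of ribosomal RNA, it was 1.03 (adjusted p = 1.76e-07). At 5 weeks in females it had 26.3, 29.0 and 33.4 CPM in IL, against 21.7, 26.5 and 29.1 CPM in CL, with a log2 fold change of 0.18 (SE 0.08, adjusted p = 0.0533). The difference between the weeks was -0.93 (SE 0.10, adjusted p = 1.18e-08). In males it was 0.43 (SE 0.09, adjusted p = 0.00026) at 1 week.

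LOC103692514 (chr5:160492438-160536093), which contains Mir34a, fell most in females at 5 weeks, with 8.31, 12.02 and 13.98 CPM in IL, against 18.9, 21.9 and 23.7 CPM in CL. The sides did not overlap, and the log2 fold change was -0.88 (SE 0.10, adjusted p = 5.53e-09). In males it fell at 24 h by 0.33 (SE 0.10, adjusted p = 0.0185), a call that was lost without IL replicate 6 (-0.28, adjusted p = 0.0585), and at 1 week by 0.68 (SE 0.11, adjusted p = 3.14e-05).

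LOC108350538 (chr3:167483967-167558889), which contains Mir1b, a miRNA known from muscle, was called as lower in all 5 arms, having passed the 10 CPM rule through its CL level. In females at 5 weeks it had 7.90, 9.16 and 10.6 CPM in IL, against 14.6, 15.9 and 17.0 CPM in CL, a log2 fold change of -0.80 (SE 0.08). In males at 24 h it had 8.51, 10.7 and 11.6 CPM in IL, against 12.4, 13.1 and 15.0 CPM in CL, a log2 fold change of -0.37 (SE 0.08). The sides did not overlap in any arm. The 6 skeletal muscle and adipocyte markers summed to 5.90 to 7.84 CPM in IL and 7.31 to 8.67 CPM in CL libraries of females at 5 weeks, and to 5.53 to 7.64 CPM in IL and 6.21 to 37.9 CPM in CL libraries of males at 24 h, and their part in the result was not tested.

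LOC102555254 (chr6:128546730-128737570), the long transcript downstream of Meg3 on the same strand, contains 20 miRNA genes and 44 snoRNA genes. It rose in 4 arms: in males by 0.24 after 24 h (SE 0.06, adjusted p = 0.00619), 0.21 after 1 week (SE 0.05, adjusted p = 0.00056) and 0.34 after 5 weeks (SE 0.06, adjusted p = 3.22e-05), and in females by 0.41 after 1 week (SE 0.06, adjusted p = 2.11e-07). In females at 1 week it had 117, 126 and 141 CPM in IL, against 83.1, 93.3 and 105 CPM in CL, without overlap. In females at 5 weeks it had 101, 106 and 126 CPM in IL, against 89.5, 100.4 and 113 CPM in CL, with a log2 fold change of 0.11 (SE 0.06, adjusted p = 0.173), where Meg3 had fallen.

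The 9 members that contain snoRNA genes rose or were not called, with 1 exception. 4 were higher in IL in males at 24 h, 5 at 1 week and 4 at 5 weeks, and 5 in females at 1 week and 4 at 5 weeks, against 8.23%, 23.6%, 16%, 23.9% and 22.9% of all genes in the same order. LOC102547183, counted as higher in males at 24 h and in females at both times, passed the 10 CPM rule only through its IL level and had to differ. The exception was LOC100911266, which fell in females at 5 weeks by 0.25 (SE 0.07). LOC100911177, which contains 3 snoRNA genes and runs away from Znfx1, rose by 0.47 and 0.29 in males after 1 and 5 weeks (SEs 0.07 and 0.08) and by 0.55 and 0.22 in females (SEs 0.07 and 0.08). The call at 5 weeks in females was lost without CL replicate 6, IL replicate 1 or IL replicate 3, with adjusted p up to 0.0887. The median log2 fold changes of the 9 were 0.20, 0.21 and 0.17 in males at 24 h, 1 week and 5 weeks, and 0.27 and 0.11 in females at 1 and 5 weeks. Gas5 was the only member on the list of snoRNA host genes given by symbol, and no member was on the list of miRNA host lncRNAs. Only 4 of the 22 snoRNA host symbols and 3 of the 33 miRNA host symbols matched a row by name. Absence from these lists therefore says nothing about level, and hosts such as LOC120095139, which contains Mir22, carry other names.

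The difference between the sides changed with time in females for more members than in males, and the same held for all genes. The sexes were fitted separately at these weeks, so sex and fit cannot be told apart here. The side difference at 5 weeks minus that at 1 week was called in females for 30 of 79 members, 5 higher and 25 lower, 38% against 13.5% of all genes tested (7.66% higher and 5.88% lower). With the ribosomal RNA share as a covariate it was called for 9 members, 1 higher and 8 lower. The share of all genes was counted for the main fit only, not with the covariate or the alternatives named next. In males it was called for 0 of 78 members, against 0.211% of all genes (0.079% higher and 0.132% lower), with 12 at an unadjusted p under 0.05 by edgeR, 0 called by DESeq2 and by limma-voom, and 1 called with the replicate as a block.

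8 members rose in IL in females at 1 week and fell at 5 weeks: Miat, Meg3, LOC102554677, LOC120102392, LOC108352923, LOC108352922, LOC102549117 and Tincr. No member did the reverse in females, and none changed direction between these weeks in males. The share of all genes that turned in the same way was not counted, so these counts are descriptions. With the ribosomal RNA share as a covariate, Tincr alone of the 8 was called as higher at 1 week (0.47, adjusted p = 0.0312), with Miat at -0.04 and Meg3 at 0.19 (adjusted p = 0.868 and 0.3), while all 8 were called as lower at 5 weeks. In females at 1 week that share and side cannot be told apart. LOC102554677 (chr15:38825410-38845428), which contains Mir124-1, the gene of a miRNA known from neurons, had 36.1, 42.0 and 45.8 CPM in IL at 1 week, against 27.7, 30.2 and 41.8 CPM in CL. At 5 weeks it had 24.4, 29.5 and 32.9 CPM in IL, against 38.5, 46.6 and 49.3 CPM in CL. Both sides moved between the weeks, and the sides overlapped at 1 week and not at 5 weeks. The side difference changed by -1.01 (SE 0.12, adjusted p = 9.11e-08). Adjusting for the share of ribosomal RNA, that change was -0.74 (adjusted p = 0.00456).

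7 of these 8 were also higher in CL libraries at 5 weeks than at 1 week in females, among them Miat by 0.37 (SE 0.07), Meg3 by 0.43 (SE 0.07), LOC102554677 by 0.46 (SE 0.08), LOC120102392 by 0.51 (SE 0.12) and Tincr by 0.51 (SE 0.09). LOC102549117 was not called there, at 0.17 (SE 0.07, adjusted p = 0.165). Over all members, CL libraries of females differed between 5 weeks and 1 week in 21 of 79, 13 higher and 8 lower at 5 weeks, 26.6% against 10.7% of all genes (3.13% higher and 7.55% lower). In males CL libraries differed in 12 of 78, 2 higher and 10 lower, 15.4% against 13.5% of all genes (7.34% higher and 6.2% lower). With the ribosomal RNA share as a covariate they differed in 5, a setting for which the share of all genes was not counted. These CL libraries enter the side differences, so the values are not separate evidence. Against CL libraries of the other week, the female side differences of Miat were -0.16 at 1 week and -0.14 at 5 weeks, and those of Meg3 were -0.04 and 0.13.

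**Figure D5:**
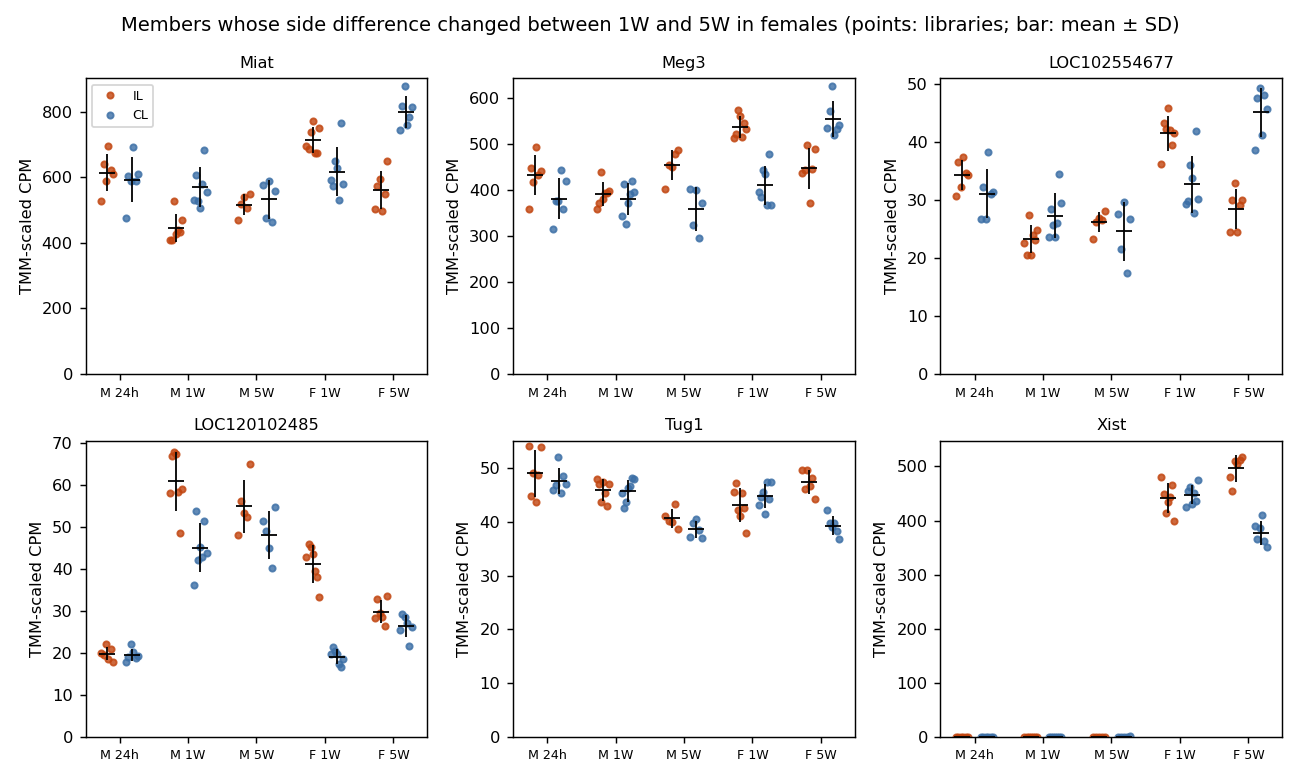
Points are libraries, bars the mean ± SD, and the y axis is the CPM after TMM scaling within a table, for IL (orange, left) and CL (blue, right) in each arm. In females Miat, Meg3 and LOC102554677 are higher in IL at 1 week and lower at 5 weeks, LOC120102485 differs most at 1 week, Tug1 and Xist differ at 5 weeks, and Xist is near 0 in males.

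Between the sexes, the side difference of females minus that of males was called at 1 week for 10 of 79 members, all higher in females, 12.7% against 1.11% of all genes (0.416% higher and 0.698% lower). It was 0.66 (SE 0.11, adjusted p = 8.9e-05) for LOC120102485, 0.55 (SE 0.10, adjusted p = 0.000454) for Miat and 0.55 (SE 0.11, adjusted p = 0.00274) for Tincr. With the ribosomal RNA share as a covariate 1 member was called, and the share of all genes was not counted for that setting. At 5 weeks it was called for 10 of 79, 1 higher and 9 lower in females, 12.7% against 2.11% of all genes (1.55% higher and 0.562% lower), with -0.69 (SE 0.11, adjusted p = 4.49e-05) for Meg3 and -0.79 (SE 0.15, adjusted p = 0.000473) for LOC102554677. The 1 higher was Xist, whose male libraries were near 0. Females and males at these weeks were in separate tables, so sex and table cannot be told apart in these differences.

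In males, the side difference at 1 week minus that at 24 h was called for 24 of 79 members, 8 higher and 16 lower, 30.4% against 23% of all genes (11% higher and 12% lower). Among the 72 members at 10 CPM or more on both sides 19 were called, 5 higher and 14 lower, 26.4%. Miat fell by 0.41 (SE 0.11) and Oip5-as1 by 0.24 (SE 0.06) over that step. The 2 times were in separate tables, so time and table cannot be told apart here.

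Members with long exons moved in both directions. Among the 19 members with over 10000 bases of exon, 8 were higher and 6 lower in IL in females at 1 week, and 3 were higher and 8 lower at 5 weeks. Of the other 60, 19 were higher and 11 lower at 1 week, and 10 higher and 27 lower at 5 weeks, against 23.9% and 21.8%, then 22.9% and 19.1%, of all genes. Spearman's rho between exon length and log2 fold change over the members lay between -0.26 and -0.09 in the 5 arms, given as a description over 78 or 79 members of the same libraries.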

How the data were processed

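Both deposited tables hold estimated counts per gene for 62 libraries; their values are fractional in part, with 74.1% and 78.1% of nonzero values whole. Per the submitters' processing notes, the authors aligned reads to build mRatBN7.2 with STAR 2.7.2b and counted them with featureCounts 1.6.4, after bcl2fastq 2.20.0.422 and trimming with cutadapt 2.5; the strand setting of the counting is not given in the sources used here. Per the labels' protocols, libraries were poly-A selected, stranded and single-end. Counts were rounded to whole numbers here, which moved no library total by more than 0.0014%; the planned test had assumed whole counts.

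Members, role lists, markers and alternatives were chosen with earlier results of these data known. Each table was fitted with edgeR 4.0.16 (R 4.3.3) by a robust quasi-likelihood test over its groups, with TMM scaling, filterByExpr at a minimum count of 10, and Benjamini-Hochberg adjustment over all genes tested. Differences between the tables used 1 joint fit. SE is the log2 fold change divided by the root of F. CPM values shown use TMM-scaled library sizes within a table, and a member's rule used raw totals. limma 3.58.1 and DESeq2 1.42.0 were alternatives, and the fit was tested on simulated data. Summaries used Python 3.11.15, pandas 2.3.3, scipy 1.17.1 and matplotlib 3.10.9. Library totals set the counting error. The main tests weighed a difference between groups against the spread between libraries, without pairing the IL and CL libraries of an animal.

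Named members were the 10 with the highest level per kb, in each side comparison the 6 largest rises and 6 largest falls among those called with the same sign in every pair, the members on the role lists, and in each other comparison the 4 called with the smallest p in each direction; hosts of small RNAs and partners of a named gene were added after their values were seen. Some neighbouring genes are not reported here. IL and CL libraries of a replicate number come from the same animal by the labels' animal codes for females and males at 24 h. The median correlation of same-numbered deviations was 0.22 in males at 24 h, 0.47 in males at 1 week, 0.40 in males at 5 weeks, 0.33 in females at 1 week and 0.37 in females at 5 weeks, and it was over 0.1 in every pair of males at 1 and 5 weeks.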

Additional observations from a re-analysis of the deposited data

Results flagged for a closer look

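In 240 groups of values, from 24 members in 10 groups, 10 libraries stood apart from the rest of their group (4.17%), where chance gives about 1 in 20 groups. IL replicate 3 of the males at 1 week was high for H19 at 77.5 CPM with the next at 46.9 CPM, for LOC103692514 at 27.1 CPM with the next at 20.5 CPM, for LOC108350538 at 11.8 CPM with the next at 7.67 CPM and for LOC120102252 at 73.98 CPM with the next at 44.1 CPM. IL replicate 1 of the males at 5 weeks was low for LOC102555254 at 95.1 CPM with the next at 109 CPM, and for LOC108352150 at 15.6 CPM with the next at 21.2 CPM. IL replicate 5 of the males at 24 h was low for LOC100911221 at 24.01 CPM with the next at 30.5 CPM, and CL replicate 4 was high for LOC102555254 at 103 CPM with the next at 89.7 CPM. In females, CL replicate 3 at 5 weeks was high for H19 at 5.81 CPM with the next at 3.96 CPM, and CL replicate 3 at 1 week was high for LOC120101925 at 9.37 CPM with the next at 7.27 CPM.

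The side difference changed between times or sexes in these members, each by the test of the difference itself (edgeR, adjusted p under 0.05). At 5 weeks minus 1 week in females it was 0.26 for Oip5-as1, 0.33 for Tug1, 0.42 for Xist and 0.86 for LOC120102252, and -0.93 for LOC120102485, -1.01 for LOC102554677, -0.72 for Miat and -0.70 for Meg3. At 1 week minus 24 h in males it was 0.77 for LOC108352150, 0.41 for LOC120102485, 0.23 for Smim30l1 and 0.48 for LOC102549726, and -0.69 for LOC120095139, -0.63 for LOC102547322, -1.13 for LOC103691652 and -0.40 for LOC102556249. LOC108352150 and LOC103691652 passed the 10 CPM rule only through the side where they are high. Females minus males at 1 week gave 0.66 for LOC120102485, 0.55 for Miat, 0.55 for Tincr and 0.46 for LOC102547322. Females minus males at 5 weeks gave 1.76 for Xist, which rests on male libraries near 0, and -0.69 for Meg3, -0.79 for LOC102554677, -0.60 for Tincr and -0.84 for LOC102556677.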

How the results depend on the processing

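Over the 5 side comparisons, in the order of males at 24 h, 1 week and 5 weeks and females at 1 and 5 weeks, members called numbered 14, 38, 28, 45 and 49 with RLE scaling, 14, 41, 30, 44 and 48 with DESeq2, and 15, 40, 28, 46 and 48 with limma-voom. Without a filter they were 13, 36, 29, 42 and 42. For the alternative fits in this section the share of all genes called was not counted. With the ribosomal RNA share as a covariate, 27 were called in females at 1 week, 9 for 5 weeks minus 1 week in females, 1 for females minus males at 1 week and 5 for CL libraries of males between the weeks, and Miat in females at 1 week was -0.038. Among the 49 members that overlap no other gene, small RNA genes left aside, 8, 25, 15, 27 and 28 were called, a lower count by construction. Among the 72 at 10 CPM or more on both sides, an alternative chosen after seeing the data, 8 were called in males at 24 h. Leaving out RefSeq's coding genes and pseudogenes, chosen likewise, gave 14, 38, 28, 42 and 44.

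Set against CL libraries of the other week, the signs changed of Bc1 (-0.64 in males at 1 week and 0.68 at 5 weeks), Tug1 (-0.17 in males at 5 weeks, 0.13 in females at 1 week), Miat (-0.16), Meg3 (-0.044) and Xist (0.22) in females at 1 week, and H19 (-0.14) and Meg3 (0.13) in females at 5 weeks. The cause was not tested.

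With the replicate as a block, 21, 48, 36, 50 and 54 members were called in the side comparisons, and 1 for 5 weeks minus 1 week in males. Leaving out 1 library gave 12 to 18, 35 to 41, 26 to 33, 42 to 44 and 41 to 48 members called.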
